A study of Homo sapiens with 8 samples.

Results

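The 10 genes described here encode secreted plasma proteins of the liver. They are albumin (ALB), alpha-fetoprotein (AFP), transthyretin (TTR), transferrin (TF), fetuin-A (AHSG), retinol binding protein 4 (RBP4), haptoglobin (HP), hemopexin (HPX), alpha-1 antitrypsin (SERPINA1) and orosomucoid 1 (ORM1). They were taken by symbol from the deposited count table, where all 10 were listed among 15767 genes, and all 10 were among the 12928 genes with enough counts to be tested. RNA-seq had been performed on HuH7, a wild-type human hepatoma cell line, in 2 groups of 4 libraries. Every culture was first kept for 6 h at 1% oxygen in medium without glucose (OGD), and then returned to normoxia for 6 h (reperfusion, R). During those last 6 h the medium held the solvent DMSO (I/R+DMSO, n = 4) or the ginsenoside Rk2, a saponin of ginseng, at 20 µM (I/R+Rk2, n = 4). The comparison therefore asks how the transcripts of these proteins differed with Rk2 after OGD/R, and both groups had been through OGD/R. Cells without OGD/R were not analysed here. All libraries come from 1 tumour cell line in culture without other liver cells, and nothing in the labels says whether the 4 libraries of a group came from separate cultures, so p-values measure the spread between these samples, which may be technical.

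Hepatocytes make most of the protein of blood plasma and send it out through the endoplasmic reticulum and Golgi. Some of these proteins carry small molecules: albumin binds fatty acids and bilirubin, transthyretin binds thyroid hormone and docks with retinol binding protein, and transferrin carries iron. Haptoglobin and hemopexin bind hemoglobin and heme set free from red cells. Alpha-1 antitrypsin inhibits neutrophil elastase. In the acute-phase response to infection or injury, cytokines such as interleukin 6 act on the liver, and its output of positive acute-phase proteins (haptoglobin, hemopexin, alpha-1 antitrypsin, orosomucoid) rises while that of negative ones (albumin, transthyretin, transferrin, fetuin-A, retinol binding protein) falls. Alpha-fetoprotein is the albumin of fetal liver and returns in many hepatomas.

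Library totals ran from 18428485 to 21447045 counts with DMSO and from 16374082 to 30310479 with Rk2, and I/R+DMSO replicate 1 stood apart from its group on the second principal component of all tested genes. Levels are given as CPM (counts scaled to the size of the library, normalized by edgeR's TMM factors) when groups are compared, and as the deposited FPKM (fragments per kilobase of gene, scaled to sequencing depth) when genes are compared, because FPKM takes gene length into account. All 8 hepatoma markers in a fixed list were detected, keratin 8 (KRT8) at the highest mean level of 1217 FPKM. At an adjusted p below 0.05 in edgeR, 1 was higher with Rk2, 2 were lower and 5 did not pass. Of all tested genes 11.0% were higher and 7.23% lower. The median log2 fold change of the list was -0.043. APOA1, named after its values were seen, was at -0.22 (adjusted p = 0.0724 in edgeR and 0.0349 in DESeq2). Summed over the list, FPKM was 2740 to 2904 with DMSO and 2312 to 2525 with Rk2, where KRT8 (log2 fold change -0.47, adjusted p = 0.000771 in edgeR) and KRT18 (-0.52, adjusted p = 0.00642) were lower with Rk2 and APOB (0.61, adjusted p = 0.0124), the structural protein of secreted lipoproteins, was higher (0.29 after a correction for gene length, adjusted p = 0.012). Of the markers of other cell types, DCN (fibroblasts), CDH5, VWF and KDR (endothelium), PTPRC and HBB (blood) were listed at 0 FPKM in every library. The summed level was 105 to 113 FPKM for 4 bile duct markers, 5.56 to 7.17 for 6 fibroblast and stellate cell markers, 1.07 to 2.10 for 4 endothelial markers and 24.2 to 32.7 for 5 blood cell markers, each led by 1 gene (SOX9, COL1A2, PECAM1 and CD68). Among these, KRT19 of the bile duct list was lower in I/R+Rk2 (-0.55, adjusted p = 0.00205 in edgeR), while SOX9 of that list was at 0.18 with non-overlapping groups (adjusted p = 0.0715, and 0.0468 in DESeq2) and EPCAM at 0.087 (adjusted p = 0.321). CD14 of the blood list was lower on 5 to 24 counts (-1.25, adjusted p = 0.043), a call that was lost without each of 6 libraries in turn (replicate 1, 3 or 4 of I/R+DMSO and replicate 1, 2 or 3 of I/R+Rk2; adjusted p up to 0.102, log2 fold change between -1.30 and -1.04). CD14 was not called in DESeq2 either (adjusted p = 0.057). Without a filter on low counts its adjusted p was 0.0631 in edgeR, and with unfiltered limma on FPKM it was 0.0688. What part any of this had in the values below was not tested. In bulk RNA fewer cells of a type and less RNA per cell cannot be told apart.

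The genes lie on 8 chromosomes. Positions are from the GENCODE v29 annotation of GRCh38, the build (hg38) that the submitters' processing notes name, and each is a protein-coding gene. ALB (chromosome 4 from 73397114 to 73421412 on the plus strand) and AFP (chromosome 4 from 73431138 to 73456174 on the plus strand) are neighbours 9.725 kb apart, with the related AFM 25.51 kb beyond AFP. TTR is on chromosome 18 from 31557010 to 31599021 on the plus strand, RBP4 on chromosome 10 from 93591687 to 93601744 on the minus strand and TF on chromosome 3 from 133745956 to 133796640 on the plus strand. HP is on chromosome 16 from 72054592 to 72061055 on the plus strand, next to its near copy HPR at a distance of 2.092 kb. HPX is on chromosome 11 from 6431049 to 6442617 on the minus strand and SERPINA1 on chromosome 14 from 94376747 to 94390693 on the minus strand. AHSG is on chromosome 3 from 186612923 to 186621318 on the plus strand, with FETUB and HRG of the same family downstream. ORM1 is on chromosome 9 from 114323056 to 114326475 on the plus strand, and ORM2 starts 3.393 kb past its end.

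Sequences around annotated starts of transcription were searched for short motifs. RefSeq windows of 300 bases on GRCh38.p14, 250 of them before the start of transcription, matched 8 of the 10 genes with 12 windows in all, since RBP4, TF and SERPINA1 have more than 1 start. TTR and HP had no window, so they were not searched for motifs. The windows printed below lie inside the GENCODE spans given above, so their RefSeq starts are not the outer ends of those spans. Capitals below mark 2 motifs: a half-site of HNF1, a homeodomain factor of liver genes (GTTAAT, or ATTAAC on the other strand), and the TATA box (TATAAA, read on the strand of the gene). ALB and AFP are shown as the neighbours with the highest levels, SERPINA1 as the only other gene of the 8 with the HNF1 half-site in a window, and HPX as the gene whose groups did not overlap. The windows are chr4:73404037-73404336 (plus strand) for ALB, chr4:73435971-73436270 (plus strand) for AFP, chr14:94388553-94388852 (minus strand) for SERPINA1 and chr11:6440938-6441237 (minus strand) for HPX, each written 5′ to 3′ on the strand of its gene.
ALB: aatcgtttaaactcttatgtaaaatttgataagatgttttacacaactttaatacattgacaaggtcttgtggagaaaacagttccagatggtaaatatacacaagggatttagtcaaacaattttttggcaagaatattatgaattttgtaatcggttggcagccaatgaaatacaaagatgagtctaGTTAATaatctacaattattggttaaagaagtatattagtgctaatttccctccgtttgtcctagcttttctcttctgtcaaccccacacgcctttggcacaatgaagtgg
AFP: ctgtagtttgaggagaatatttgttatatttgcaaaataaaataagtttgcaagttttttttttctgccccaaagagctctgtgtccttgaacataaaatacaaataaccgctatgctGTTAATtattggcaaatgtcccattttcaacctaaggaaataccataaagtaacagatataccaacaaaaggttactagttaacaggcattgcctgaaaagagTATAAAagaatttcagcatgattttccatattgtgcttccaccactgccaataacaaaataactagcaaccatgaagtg
SERPINA1: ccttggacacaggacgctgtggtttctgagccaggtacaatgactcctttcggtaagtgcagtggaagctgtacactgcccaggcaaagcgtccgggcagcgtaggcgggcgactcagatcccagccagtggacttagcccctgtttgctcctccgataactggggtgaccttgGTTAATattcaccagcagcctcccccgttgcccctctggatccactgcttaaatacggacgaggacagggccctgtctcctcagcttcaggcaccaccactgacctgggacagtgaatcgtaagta
HPX: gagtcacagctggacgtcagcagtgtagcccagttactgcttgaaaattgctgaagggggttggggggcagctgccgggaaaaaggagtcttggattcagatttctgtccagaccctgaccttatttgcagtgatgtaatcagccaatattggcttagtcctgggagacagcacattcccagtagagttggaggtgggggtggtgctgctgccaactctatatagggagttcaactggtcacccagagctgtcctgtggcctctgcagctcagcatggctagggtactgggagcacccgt

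Counted from the start of transcription, the HNF1 half-site began at -61 in ALB, -132 in AFP and -76 in SERPINA1, and no window of the other 5 genes held these letters. Of all 35116 RefSeq windows, 6.88% held it. The TATA box lay at -29 in AFP, -29 in ORM1 and -31, 7 and -225 in the 3 windows of RBP4. The matches at 7 and -225 are 1 stretch of the genome, since those windows of RBP4 overlap. Counted by window, 5 of the 12 held it, in 3 genes, against 7.33% of all windows. The letters TTGCNNAA of C/EBP factors, read on both strands, were in windows of 6 of the 8 genes (ALB, AFP, RBP4, TF, HPX and AHSG), in 6 of their 12 windows and in 10.5% of all windows. TTCNNNGAA, a form that STAT3 binds, was in 1 window of RBP4, and 7.66% of all windows held it. CAAAGTCC, a form of the HNF4 element, was in AHSG and in 1.2% of all windows, and the FOXA letters TGTTTAC were in none of the 8 genes and in 3.42% of all windows. A match is a run of letters and not a bound site.

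The 10 genes spanned a wide range of levels, and 2 of them were not abundant in HuH7. Together they took 1.09% to 1.18% of all counts in each library. AFP led with a mean of 2388 FPKM over the 8 libraries (range 2229 to 2526) and ranked 15 to 17 among all 19799 rows of the FPKM table. ALB followed with 1018 FPKM (range 973 to 1046) and rank 41 to 58. RBP4 (563 ± 67.4 FPKM, SD, n = 8, rank 79 to 112), TF (549.9 ± 17.7, rank 86 to 121) and SERPINA1 (509 ± 75.0, rank 93 to 170) lay close together: RBP4 was above TF in 4 of 8 libraries and TF above SERPINA1 in 6 of 8, so that their order did not hold beyond the spread between libraries. ORM1 came next at 257 ± 17.5 FPKM (rank 227 to 273). TTR, at 104 ± 4.64 FPKM (rank 666 to 738), was above AHSG, at 91.4 ± 5.28 (rank 761 to 876), in each of the 8 libraries, although their ranges of 99.1 to 114 and 83.9 to 100.1 touched. HPX, at 8.11 ± 1.03 FPKM, ranked 5999 to 7541, and HP, at 3.70 ± 0.602, ranked 8475 to 9677. The other 8 genes ranked at 876 or better by FPKM in every library. HPX and HP, the binders of heme and hemoglobin, thus go against the description of the 10 as abundant, with HP resting on 86 to 145 counts per library and HPX on 201 to 391, where AFP had 95867 to 183417. Ranked by counts, which also depend on gene length, the median ranks were 8.5 for AFP, 22 for ALB, 65 for TF, 92.5 for SERPINA1, 184 for RBP4, 695.5 for ORM1, 1156 for AHSG, 1820.5 for TTR, 8585.5 for HPX and 10423 for HP.

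**Figure D1:**
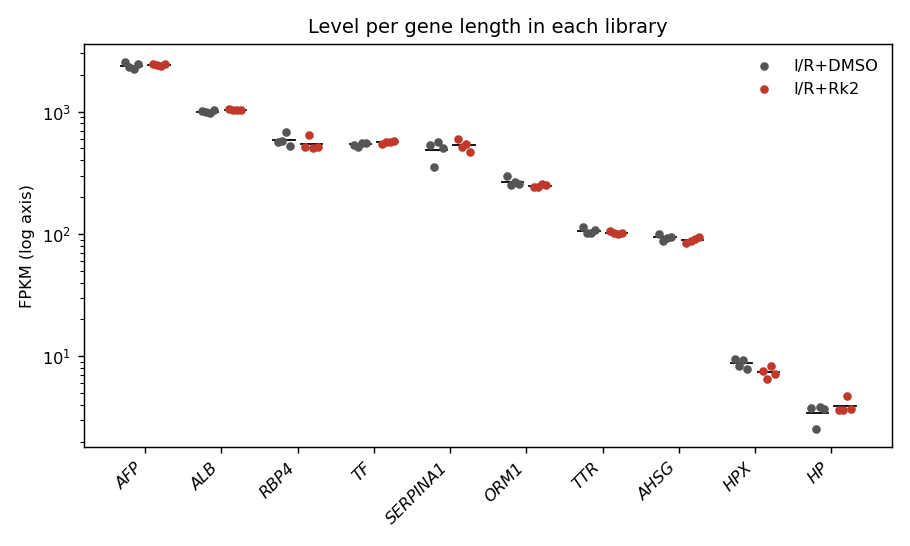
FPKM (log axis) of the 10 genes in each of the 4 I/R+DMSO libraries (grey points) and 4 I/R+Rk2 libraries (red points), with the group mean as a line, ordered by the mean over all libraries. Levels fall from 2388 FPKM for AFP to 3.70 FPKM for HP, while the groups lie on or beside each other for each gene.

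The ratio of AFP to ALB transcripts per length was 2.37 ± 0.0890 in I/R+DMSO and 2.32 ± 0.0385 in I/R+Rk2 (SD, n = 4 each), and the ranges of 2.29 to 2.50 and 2.28 to 2.37 overlapped. The ratio of TTR to RBP4, whose proteins travel as a complex, was 0.184 ± 0.0259 and 0.1904 ± 0.0219, also with overlapping ranges.

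None of the 10 genes passed the threshold in either direction with Rk2. With edgeR's quasi-likelihood test and Benjamini-Hochberg adjustment over all 12928 tested genes, 0 of 10 were higher and 0 of 10 lower at an adjusted p below 0.05, where 11.0% of all tested genes were higher and 7.23% lower. DESeq2 and limma on FPKM also called 0, and 2 of the 10 (HPX and ORM1) had an unadjusted p below 0.05 in edgeR. The study's stricter threshold, which adds a fold change above 1.5, was met by 0 of 10 genes and by 3.04% of all. The 95% interval of all 10 genes lay inside 1.5-fold in both directions. By sign, 4 genes were higher and 6 lower. The median log2 fold change of the 10 was -0.068, against -0.0021 for all tested genes, and the median of its size was 0.069, against 0.17. Most tested genes had lower levels than most of the 10, and genes of like level were not compared. Separation of all 4 Rk2 libraries from all 4 DMSO libraries was seen in 1 of the 10 genes, HPX, and in 28.2% of all tested genes. Over all genes the split of calls, 1416 higher and 935 lower, moved to 1246 and 1300 with upper-quartile normalization and to 1643 and 684 with library size only, while the count of the 10 genes called stayed at 0 or 1. Log2 fold changes rose with gene length across all tested genes, which are not independent (Spearman's rho = 0.388), and values after a correction for length are given where they turn a sign.

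**Figure D2:**
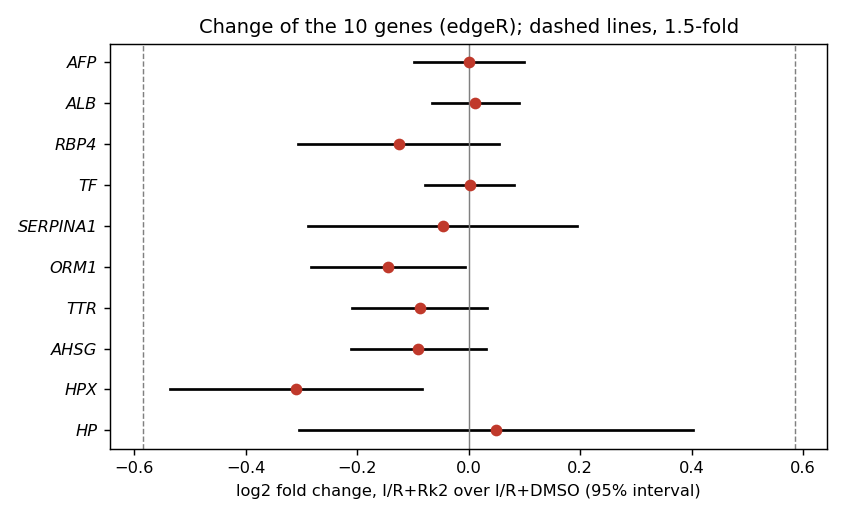
Log2 fold change of I/R+Rk2 over I/R+DMSO for the 10 genes (points) with 95% intervals from edgeR (bars), with dashed lines at 1.5-fold in each direction. All 10 bars lie between the dashed lines, and the bars of HPX and ORM1 do not reach 0.

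The carriers of hormones, vitamins, fatty acids and bilirubin were 4 of the 10. ALB, the main protein of plasma, had 2337, 2241, 2211 and 2353 CPM in the 4 DMSO libraries and 2346, 2308, 2301 and 2260.2 CPM with Rk2. The groups overlapped and the span was widest in I/R+DMSO. The means were 2285 ± 69.7 and 2304 ± 35.1 CPM (± SD over 4 libraries), with edgeR's log2 fold change at 0.012 (SE 0.0342, 95% interval -0.067 to 0.090, adjusted p = 0.844). By FPKM the groups of ALB did not overlap, with 1012, 983, 973 and 1024 in I/R+DMSO and 1046, 1034, 1033 and 1038 in I/R+Rk2, but limma on log2(FPKM + 1) put the difference at 0.056 (log2) with adjusted p = 0.38. Summed over all rows, FPKM was 516034 to 536599 with DMSO and 490183 to 500630 with Rk2, and its part in that difference was not tested. AFP, the fetal counterpart, had 6312, 5708, 5669 and 6035 CPM in the 4 DMSO libraries and 6004, 5892, 5795 and 6041 CPM with Rk2. The highest and the lowest library were again both in I/R+DMSO. The means were 5931 ± 303 and 5933 ± 112 CPM (± SD over 4 libraries), with edgeR's log2 fold change at 0.00045 (SE 0.0427, 95% interval -0.097 to 0.098, adjusted p = 0.996). AFP took 0.559% to 0.618% of all counts in each library. The sign of differences as small as those of ALB and AFP depended on the normalization.

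TTR, which carries thyroid hormone, had 134, 116, 117 and 122 CPM in the 4 DMSO libraries and 119, 115, 111 and 115 CPM with Rk2. The I/R+DMSO library at the top stood above all others, and the remaining 7 lay within 110.9 to 122 CPM. Means were 122 ± 8.03 and 115 ± 3.33 CPM (± SD over 4 libraries), with edgeR's log2 fold change at -0.088 (SE 0.0529, 95% interval -0.21 to 0.033, adjusted p = 0.276). RBP4, which carries retinol from the liver, had 635, 628, 710.1 and 580.0 CPM in the 4 DMSO libraries and 565, 662, 556 and 556 CPM with Rk2. In each group 1 library was above the rest, 710.1 CPM with DMSO and 662 CPM with Rk2, and 3 of the 4 I/R+Rk2 libraries lay below every I/R+DMSO library. Means were 638 ± 53.8 and 585 ± 51.7 CPM (± SD over 4 libraries), with edgeR's log2 fold change at -0.13 (SE 0.0786, 95% interval -0.31 to 0.054, adjusted p = 0.297). The lower signs of TTR and RBP4 turned after the length correction, to log2 fold changes of 0.040 and 0.0024.

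**Figure D3:**
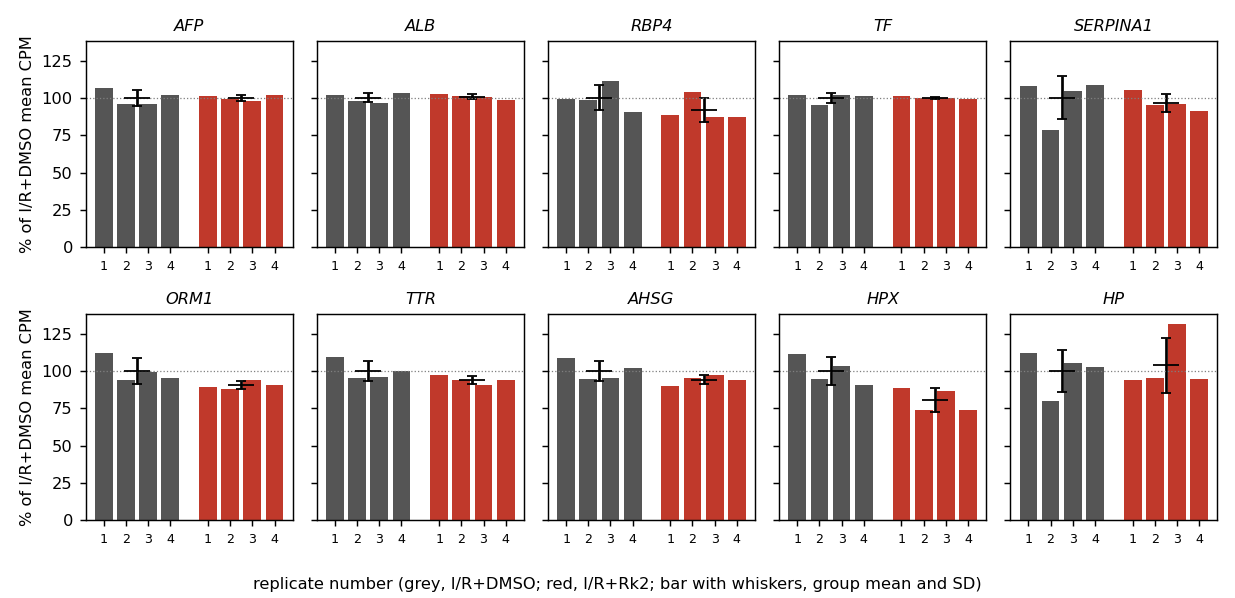
CPM of each of the 10 genes in every library as a percent of the I/R+DMSO mean of that gene (bars; grey, I/R+DMSO; red, I/R+Rk2), with the group mean and SD beside them. HPX is the gene in which all 4 I/R+Rk2 bars are below all 4 I/R+DMSO bars, and single libraries stand out in SERPINA1, RBP4 and HP.

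Among the binders of iron and heme, HPX had the largest difference of the 10 genes and TF one of the smallest. TF, the iron carrier, had 1163, 1081, 1158 and 1151 CPM in the 4 DMSO libraries and 1151, 1137, 1139 and 1132 CPM with Rk2. The I/R+Rk2 libraries lay inside the range of I/R+DMSO. The means were 1138 ± 38.7 and 1139.8 ± 8.12 CPM (± SD over 4 libraries), with edgeR's log2 fold change at 0.0019 (SE 0.0348, 95% interval -0.078 to 0.082, adjusted p = 0.978). Exons of TF overlap those of SRPRB and of the pseudogene TFP1 on the same strand, so reads there could be counted to either. SRPRB, named for this overlap after its values were seen, had 2010 to 4346 counts per library, where TF had 18840 to 35170. By CPM it was higher with Rk2, at 136 to 142 against 109 to 128 (SRPRB, 0.28 on the log2 scale, adjusted p = 0.0119 in edgeR), and its part in the value of TF was not tested. HPX, which binds free heme, had 16.1, 13.7, 14.9 and 13.1 CPM in the 4 DMSO libraries and 12.8, 10.6, 12.6 and 10.7 CPM with Rk2. All 4 I/R+Rk2 libraries were below the lowest I/R+DMSO library. The means were 14.5 ± 1.33 and 11.7 ± 1.18 CPM (± SD over 4 libraries), with edgeR's log2 fold change at -0.31 (SE 0.0984, 95% interval -0.54 to -0.084, adjusted p = 0.0622). This missed the threshold, and over the 21 alternative settings the log2 fold change stayed between -0.36 and -0.22 with adjusted p from 0.0411 to 0.183, 0.0509 in DESeq2 and 0.048 with upper-quartile normalization. By FPKM the groups of HPX overlapped, with 9.56, 8.40, 9.36 and 7.89 in I/R+DMSO and 7.53, 6.59, 8.40 and 7.13 in I/R+Rk2. HP, which binds hemoglobin, had 5.68, 4.05, 5.34 and 5.20 CPM in the 4 DMSO libraries and 4.75, 4.82, 6.65 and 4.80 CPM with Rk2. The highest value was that of 1 I/R+Rk2 library and the lowest that of 1 I/R+DMSO library, with the other 6 between 4.75 and 5.68 CPM. The means were 5.07 ± 0.709 and 5.25 ± 0.931 CPM (± SD over 4 libraries), with edgeR's log2 fold change at 0.049 (SE 0.154, 95% interval -0.30 to 0.40, adjusted p = 0.854). At this depth counting error alone gave a coefficient of variation of 9.75% for HP, and its interval is the widest of the 10.

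The other 3 genes encode an inhibitor of proteases and a pair of plasma glycoproteins. SERPINA1, the inhibitor of neutrophil elastase, had 985, 716, 956 and 991 CPM in the 4 DMSO libraries and 959.7, 869.9, 872 and 829 CPM with Rk2. I/R+DMSO replicate 2, at 716 CPM, was below all 7 other libraries. The means were 912 ± 132 and 883 ± 54.9 CPM (± SD over 4 libraries), with edgeR's log2 fold change at -0.047 (SE 0.105, 95% interval -0.29 to 0.19, adjusted p = 0.791). Without that replicate the log2 fold change was -0.15, and with limma on log2(FPKM + 1) it was 0.13, with no call in either. AHSG, a glycoprotein that keeps calcium phosphate from precipitating, had 193, 168, 169 and 181 CPM in the 4 DMSO libraries and 160.0, 169, 172 and 166 CPM with Rk2. Its groups overlapped, with the highest 2 values in I/R+DMSO. The means were 178 ± 11.8 and 167 ± 5.30 CPM (± SD over 4 libraries), with edgeR's log2 fold change at -0.090 (SE 0.0530, 95% interval -0.21 to 0.031, adjusted p = 0.266). ORM1, an acute-phase glycoprotein that binds basic drugs, had 290.3, 243, 256 and 245 CPM in the 4 DMSO libraries and 230.0, 228, 243 and 234 CPM with Rk2. I/R+DMSO replicate 1 was the highest, and the highest I/R+Rk2 library reached just past the lowest of I/R+DMSO. The means were 259 ± 21.9 and 234 ± 6.57 CPM (± SD over 4 libraries), with edgeR's log2 fold change at -0.15 (SE 0.0604, 95% interval -0.28 to -0.0067, adjusted p = 0.129). After the length correction the log2 fold change of ORM1 was 0.0093.

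For ALB, AFP and TF the variation between libraries was below the median of all tested genes in both groups. Of the other leading genes, SERPINA1 was above that median in I/R+DMSO and RBP4 in I/R+Rk2. The coefficient of variation of CPM in I/R+DMSO ran from 3.05% for ALB to 14.4% for SERPINA1, with a median of 9.81% over all tested genes, and in I/R+Rk2 from 0.712% for TF to 17.7% for HP, with a median of 7.63% over all. Counting error accounted for at most 2.02% in the 8 more abundant genes and for 6.09% in HPX.

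Several of the 10 genes have close relatives whose reads could be shared. ORM1 and ORM2 have 94.88% identity over their coding sequence, and 47.41% of the 50-base words of the ORM1 transcript also occur in ORM2. ORM2 was at 149 ± 14.1 FPKM in I/R+DMSO and 135 ± 3.17 in I/R+Rk2 (SD, n = 4 each), and its CPM differed by -0.18 on the log2 scale (adjusted p = 0.118 in edgeR). After the length correction ORM2 was at -0.016. The ratio of ORM1 to ORM2 by FPKM was 1.79 ± 0.0864 and 1.83 ± 0.0532. HP and HPR have 95.59% coding identity and share 28.61% of the 50-base words of HP, so the split of their few reads is uncertain. HPR had 15 to 32 counts per library and differed by -0.17 on the log2 scale (adjusted p = 0.674 in edgeR). ALB and AFP, with 59.47% coding identity, share no such word. Some neighbours of the same families had few or no reads: AFM had 0 to 5 counts per library, FETUB 0 to 7 and HRG 0 to 9, all below the filter, beside ALB, AFP and AHSG with at least 2852.

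Other plasma proteins of the liver were read from fixed lists. Of 16 other carriers 11 were tested, with 1 higher and 0 lower at an adjusted p below 0.05, where 11.0% and 7.23% of all tested genes were, and a median log2 fold change of -0.051. The chaperone clusterin (CLU), named after its values were seen, stood at -0.20 with non-overlapping groups (adjusted p = 0.0517 in edgeR), and it passed in DESeq2 (adjusted p = 0.0164). The 1 was ceruloplasmin (CP), the copper carrier, which rose from 43.4 ± 5.21 to 56.2 ± 1.58 CPM (± SD, n = 4 each; 0.37 on the log2 scale, adjusted p = 0.0198 in edgeR). Without I/R+DMSO replicate 2, I/R+Rk2 replicate 3 or I/R+Rk2 replicate 4 its log2 fold change was 0.34, 0.36 and 0.36 with adjusted p of 0.0521, 0.0526 and 0.0574. AMBP, the precursor of alpha-1 microglobulin and bikunin and the most abundant of the list at 727 FPKM, stood at a log2 difference of -0.084 (adjusted p = 0.329 in edgeR).

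A fixed list held 20 acute-phase and related plasma proteins outside the 10, not sorted by the direction of their acute-phase response. Of these, 14 were tested, 1 was higher, 4 were lower and 9 did not pass, where 11.0% of all tested genes were higher and 7.23% lower. The median log2 fold change of the list was -0.31, against -0.0021 for all genes. Serum amyloid A1 (SAA1), a strong positive reactant, fell from 3.77 ± 0.437 to 2.15 ± 0.352 CPM (-0.80, adjusted p = 0.0114 in edgeR) on 28 to 82 counts per library, which its near copy SAA2 could share, and the length correction with a replicate block put it at -0.63 (adjusted p = 0.0521). LRG1, another reactant, fell from 68.6 ± 4.32 to 49.0 ± 5.81 CPM (-0.49, adjusted p = 0.00996). The fibrinogen chain FGA fell from 322 ± 10.9 to 254 ± 14.9 CPM (-0.34, adjusted p = 0.00386), and FGB fell from 350.2 ± 14.7 to 290.1 ± 31.9 CPM (-0.27, adjusted p = 0.0462). The fibrinogen chain FGG, named after its values were seen, did not fall, at 98.2 ± 5.91 and 104.0 ± 3.88 CPM (0.083, adjusted p = 0.306 in edgeR). The call of FGB was lost without any 1 of 7 libraries, all but I/R+Rk2 replicate 1, with values of -0.30 to -0.20 and adjusted p up to 0.106, and also with library size only, without a filter, with voom, with limma on FPKM and after the length correction, at adjusted p of 0.0536 to 0.168. The protease inhibitor A2M, the most abundant of the list at 259.8 FPKM, rose from 1159.5 ± 94.98 to 1459 ± 74.7 CPM (0.33, adjusted p = 0.0127), and after the length correction it was at 0.21 (adjusted p = 0.029). CRP and APCS were listed at 0 FPKM in every library.

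Of 9 tested genes of the acute-phase signal, from the interleukin 6 receptor to C/EBP factors, 2 were higher, 2 were lower and 5 did not pass, where 11.0% of all tested genes were higher and 7.23% lower (median log2 fold change 0.23). The signal-transducing receptor IL6ST rose from 79.3 ± 8.49 to 123 ± 5.74 CPM (0.63, adjusted p = 0.0019 in edgeR), and the transcription factor CEBPB, at 37.6 FPKM the most abundant of the list, rose from 68.3 ± 3.47 to 107 ± 1.65 CPM (0.65, adjusted p = 0.000172). SOCS3, a feedback inhibitor that STAT3 induces, fell from 4.09 ± 0.133 to 2.49 ± 0.186 CPM (-0.72, adjusted p = 0.00354), and CEBPD fell from 100.1 ± 3.12 to 76.0 ± 3.46 CPM (-0.40, adjusted p = 0.00164).

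Of 12 liver transcription factors reported here, all tested, 3 were higher, where 11.0% of all tested genes were (median log2 fold change -0.025). With the length correction 1 was higher, NR5A2. ZHX2 and ZBTB20, known as repressors of AFP, had log2 fold changes of 0.27 (adjusted p = 0.0174 in edgeR) and 0.60 (adjusted p = 0.00773), beside the difference in AFP of 0.00045. NR5A2, a nuclear receptor that activates AFP and bile acid genes, stood at a log2 difference of 0.76 (adjusted p = 0.0236). After the length correction ZHX2 was at 0.13 (adjusted p = 0.103) and ZBTB20 at 0.20 (adjusted p = 0.0588), no longer past the threshold. ZBTB20, at a mean of 0.977 FPKM, was also not past it with limma on FPKM (adjusted p of 0.13 to 0.146). With unfiltered limma ZHX2 was not past it either (adjusted p = 0.0523). ZHX2 also lost its call without I/R+Rk2 replicate 3 or 4, at 0.24 and 0.25 (adjusted p = 0.0513 and 0.0544), and NR5A2 without replicate 3 of I/R+DMSO or replicate 1, 3 or 4 of I/R+Rk2, at 0.70 to 0.76 (adjusted p up to 0.0667). CEBPA, the most abundant of the list at 85.2 FPKM, stood at a log2 difference of -0.11 (adjusted p = 0.0652), with non-overlapping groups. It was past the threshold in DESeq2 (adjusted p = 0.0137), with upper-quartile normalization (adjusted p = 0.0349) and after the length correction (-0.15, adjusted p = 0.0158).

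Of 10 receptors that take up the 10 proteins or their cargo, 8 were tested and 0 passed in edgeR (median log2 fold change 0.14). Of all tested genes 11.0% were higher and 7.23% lower. In DESeq2, with limma on filtered log2 FPKM and without I/R+Rk2 replicate 3, 1 receptor was called higher. The endocytic receptor LRP2, named after its values were seen, alone had an unadjusted p below 0.05, with 4.12 ± 0.374 and 7.21 ± 2.63 CPM (± SD, n = 4 each; 0.81 on the log2 scale, adjusted p = 0.0624 in edgeR), and it was the 1 receptor that passed in DESeq2 (adjusted p = 0.0285). The transferrin receptor TFRC, the most abundant at 176 FPKM, stood at a log2 difference of 0.12 (adjusted p = 0.188 in edgeR). CD163, the receptor for haptoglobin bound to hemoglobin, was listed at 0 FPKM in every library. Of 6 listed genes that help carry secreted proteins out of the endoplasmic reticulum, 4 were higher and 0 lower (median log2 fold change 0.34), where 11.0% of all tested genes were higher. LMAN2 of this list, named after its values were seen, lay on the lower side at -0.12 (adjusted p = 0.19 in edgeR). The lectin LMAN1 rose from 207 ± 21.8 to 301 ± 2.96 CPM (0.54, adjusted p = 0.00229 in edgeR), and MCFD2, its partner in the export of clotting factors, rose from 143 ± 5.68 to 181 ± 1.44 CPM (0.35, adjusted p = 0.00127). The vesicle cargo receptors TMED2 (0.30, adjusted p = 0.0169) and TMED10 (0.33, adjusted p = 0.00196) rose as well. TMED10 was not past the threshold with limma on FPKM (adjusted p up to 0.116). SURF4, the most abundant at 143 FPKM, had 404, 389, 378 and 378 CPM in the DMSO libraries and 463, 461, 753 and 464 CPM with Rk2, which is 0.47 on the log2 scale (adjusted p = 0.082). Without I/R+Rk2 replicate 3, at 753 CPM the library above the rest, the log2 fold change of SURF4 was 0.26 and passed (adjusted p = 0.0113), and it passed in DESeq2 too (adjusted p = 0.0235).

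**Figure D4:**
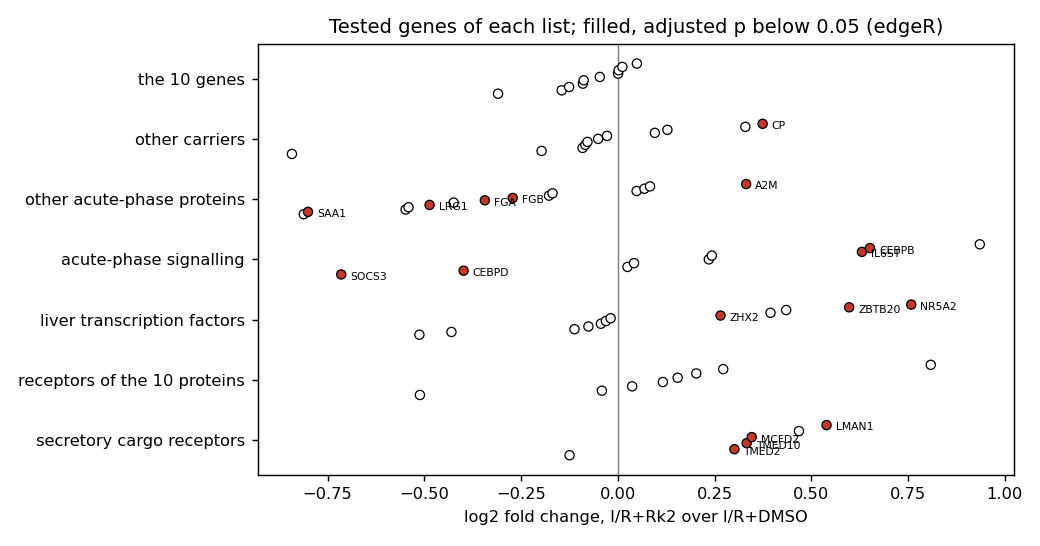
Log2 fold change of I/R+Rk2 over I/R+DMSO for every tested gene of each list (points; filled and named where the adjusted p in edgeR was below 0.05). The 10 plasma protein genes lie between -0.31 and 0.049 with no filled point. The secretory cargo receptors hold 4 filled points on the right. The other acute-phase proteins hold 4 on the left and 1 (A2M) on the right, and acute-phase signalling holds 2 on each side. Of all tested genes 11.0% were higher and 7.23% lower.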

How the data were processed

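RNA-seq libraries of HuH7 cells were grouped by their labelled treatment, 4 with DMSO and 4 with Rk2. The authors deposited raw read counts per gene without normalization, for 15767 genes. They also deposited FPKM values for 19799 genes, which scale reads by gene length and sequencing depth. Per the labels, libraries were made from 250 ng of RNA. The submitters' processing notes name FastQC 0.11.5, HISAT2 2.2.1, StringTie 1.3.3 and hg38; the counting tool and its annotation are not given in the sources used here. The authors tested with DESeq2.

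Here the 12928 genes reaching 10 counts in 4 or more libraries were normalized by TMM and tested with edgeR 4.0.16 (robust quasi-likelihood, treatment as the only term, Benjamini-Hochberg over all tested genes, adjusted p below 0.05) in R 4.3.3. The steps were tested on simulated data with 200 changed genes. Of those changed 1.2-fold, 1.5-fold and 2-fold, 2.47%, 31.6% and 71.0% were called in the right direction. The changed genes were drawn from all tested genes at any level, so these shares need not hold for the 10 genes. In the data 1416 genes were called higher and 935 lower, far more than the 200 simulated. The adjustment depends on how many genes change, so the shares found in the data may differ. Intervals are 95% intervals of the fit. Alternatives were DESeq2 1.42.0, other normalizations and filters, limma 3.58.1 on log2 FPKM (pseudocount 1 or 0.1, genes averaging 0.5 FPKM or more, or unfiltered), weighted voom, a block for replicate number, a loess correction for gene length derived from counts and FPKM, and leaving out each library. The deposited FPKM did not follow the counts for some genes (HNF4A, SERPINA1), and whether both tables rest on the same gene models is not given, which limits the derived lengths, the length correction and the comparison of FPKM with counts. Library totals ranged from 16374082 to 30310479 counts. Of the symbols with counts, 22 had been turned into dates (0.111% of counts) and were not assigned.

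The 10 genes and all lists were chosen with earlier results of these data known. A member of the list of liver transcription factors is not reported here, and the counts of that list leave it out. The text gives the 10 genes in every library, and from each other list up to 5 called genes with the smallest p and the gene with the highest mean FPKM, plus ORM2, HPR and FETUB. Other list members are named where listed at 0 or near it, and any further gene is said to be chosen after its values were seen. Coordinates are from GENCODE v29, promoter windows from RefSeq on GRCh38.p14.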

Additional observations from a re-analysis of the deposited data

Results flagged for a closer look

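In 4 of the 20 groups tested (10 genes in 2 treatment groups of 4 libraries), 1 library lay far from the other 3, with a gap to its neighbour past the 95% critical value of Dixon's test as a share of the range of the group. Chance alone gives about 1 such group in 20. For RBP4, I/R+Rk2 replicate 2 was the highest at 662 CPM, with a gap of 0.913 of the range. For TF, I/R+DMSO replicate 2 was the lowest at 1081 CPM (gap 0.851). For HP, I/R+Rk2 replicate 3 was the highest at 6.65 CPM on 110 counts (gap 0.962). For SERPINA1, I/R+DMSO replicate 2 was the lowest at 716 CPM (gap 0.873). Without each of these libraries in turn, none of the 4 genes passed the threshold in edgeR.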

How the results depend on the processing

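None of the 10 genes was called in 19 of the 21 alternatives, and 1 was called lower, HPX, with upper-quartile normalization and with a replicate block. Over all genes, calls higher moved from 1416 to 812, 798 and 707 and calls lower from 935 to 309, 308 and 264 with limma on log2(FPKM + 1), log2(FPKM + 0.1) and log2(FPKM + 1) without a filter. The length correction with the replicate block gave 697 higher. Leaving out each library in turn gave 861 to 1414 higher and 430 to 887 lower, the fewest without I/R+Rk2 replicate 4. The cause of these changes was not tested, beyond fewer libraries in the last.

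Log2 fold changes near 0 turned sign. With upper-quartile normalization ALB was at -0.016, AFP at -0.027 and TF at -0.026. AFP was at -0.0010 in DESeq2, -7.2e-06 with TMM factors set without plasma protein genes and -0.00038 among genes with at least 50 counts in every library. Without and with the replicate block, the length correction gave 0.040 and 0.040 for TTR, 0.0024 and 0.0043 for RBP4, 0.020 and 0.030 for SERPINA1, 0.0093 and 0.0081 for ORM1, -0.026 and -0.026 for TFRC and -0.10 and -0.098 for PECAM1. SERPINA1 was at 0.13, 0.13 and 0.13 with limma on log2(FPKM + 1), log2(FPKM + 0.1) and log2(FPKM + 1) without a filter, and at 0.032 with voom, where HPR was at 0.019. Leaving out each library in turn gave -0.0041 to 0.026 for ALB, -0.021 to 0.032 for AFP, -0.022 to 0.012 for TF, -0.081 to 0.11 for HP and -0.080 to 0.018 for COL1A2. It also gave -0.11 to -0.043 for TTR, -0.12 to -0.049 for AHSG, -0.17 to -0.085 for ORM1 and -0.19 to -0.071 for RBP4. None of these values passed the threshold.

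Replicate numbers were shared between the groups, but same-numbered libraries deviated together with correlations of only -0.0094 to 0.085 across genes, so the numbers were not taken as pairs. With the replicate block HPX was at -0.31 (adjusted p = 0.0411 in edgeR), ZHX2 was at 0.26 (adjusted p = 0.0544) and CD14 at -1.25 (adjusted p = 0.0503). With the length correction as well, NR5A2 was at 0.72 (adjusted p = 0.0576). Depth limited HP, HPR and genes below the filter.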

Other observations

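Some liver transcription factors and a receptor of the acute-phase signal differed severalfold between libraries of the same group, more than any of the 10 plasma protein genes did. They were named after their values were seen. FOXA2, a forkhead factor of liver genes, had 5.36, 4.85, 94.5 and 89.4 CPM in the I/R+DMSO libraries and 13.1, 15.4, 12.2 and 95.4 CPM in the I/R+Rk2 libraries, and its deposited FPKM split in the same way, from 1.66 to 33.7. IL6R, the interleukin 6 receptor, had 4.46, 32.1, 35.2 and 6.80 CPM in I/R+DMSO and 31.3 to 40.5 CPM in I/R+Rk2. PROX1, a homeobox factor of hepatocytes, had 58.4 to 132 CPM in I/R+DMSO and 36.5, 44.3, 53.4 and 166 CPM in I/R+Rk2. HNF4A had 38.7 to 119 CPM in I/R+DMSO and 68.0 to 117 CPM in I/R+Rk2. In I/R+DMSO replicate 4 HNF4A was the second lowest of that group by CPM (45.8) and the highest by FPKM (19.6). None of these genes passed the threshold in edgeR.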
